A study of Homo sapiens with 6 samples.

Results

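The S100 calcium-binding proteins were followed at the transcript level in MDA-MB-231 cells given VNLG-152R. This group is 10 genes named by symbol, S100A2, S100A3, S100A4, S100A6, S100A10, S100A11, S100A13, S100A14, S100A16 and S100P, out of 61552 gene identifiers in the count tables. The rule that names them uses no measured value of theirs, though earlier results of these data were known when it was written. Of the 10, all passed the expression filter that left 17084 genes for testing. MDA-MB-231 is an established triple-negative breast cancer cell line, and VNLG-152R is a small molecule studied for its degradation of the MNK1/2 kinases. One group of 3 samples was exposed to VNLG-152R at 10 μM and the other group of 3 to the DMSO vehicle, each over 24 h. Nothing in the labels says whether the 3 samples of a group were separate cultures, so the p-values speak of the spread among these 6 samples alone, and that spread may be technical. All 6 samples are the same line with no genetic change named, and 1 cell line, 1 dose and 1 time were tested.

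S100 proteins are small proteins with a pair of EF-hands, the helix-loop-helix units that hold calcium. Most pair up into dimers, and in most, though not in S100A10, calcium exposes a surface for binding other proteins. Annexins, myosin and p53 are among the proteins bound by the family. In breast cancer cells the family is known for S100A4, which is tied to motility and metastasis. Most family members lie side by side on chromosome 1q21, beside the genes of the epidermal differentiation complex.

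In these data S100A2, S100A3 and S100A4 transcripts fell with VNLG-152R, and they are neighbors on chromosome 1. In mean CPM (counts scaled to library size), S100A2 fell by 42.2%, S100A4 fell by 29.97% and S100A3 fell by 29.9%. None of the 10 rose. S100A6, S100A10 and S100A11 were lower in every treated library than in every control library, yet did not pass the test. The same lack of overlap was found in 13.4% of all tested genes. It was found in 36.6% of the 306 other genes of like length with at least 100 CPM in controls. The call of S100A3 was lost in 6 of 15 alternative analyses, while those of S100A2 and S100A4 held in all 15.

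The start regions of the 3 genes that fell are shown because they lie next to each other and moved in the same direction. RefSeq windows on GRCh38.p14 from 250 bases before to 50 bases after an annotated start were matched by symbol for 10 of 10 members. Each of the 3 windows below has 300 bases and is read 5′ to 3′ on the minus strand, the strand of the gene. Capitals mark 3 motifs that were searched on both strands. The TATA box was searched as TATAAA. The AP-1 site, bound by dimers of the FOS and JUN proteins, was searched as TGANTCA. The half-site of nuclear receptors was searched as AGGTCA. A pair of further motifs given after the windows is left in lower case. The S100A2 window lies at chr1:153565795-153566094, the S100A3 window at chr1:153549209-153549508 and the S100A4 window at chr1:153545757-153546056. S100A2 has 2 annotated windows, of which the one listed first is given.
S100A2: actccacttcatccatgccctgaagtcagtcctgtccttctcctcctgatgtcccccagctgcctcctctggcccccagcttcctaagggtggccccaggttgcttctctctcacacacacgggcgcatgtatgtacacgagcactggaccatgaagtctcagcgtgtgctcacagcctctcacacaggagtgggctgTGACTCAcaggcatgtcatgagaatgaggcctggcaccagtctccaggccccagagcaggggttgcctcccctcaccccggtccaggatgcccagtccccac
S100A3: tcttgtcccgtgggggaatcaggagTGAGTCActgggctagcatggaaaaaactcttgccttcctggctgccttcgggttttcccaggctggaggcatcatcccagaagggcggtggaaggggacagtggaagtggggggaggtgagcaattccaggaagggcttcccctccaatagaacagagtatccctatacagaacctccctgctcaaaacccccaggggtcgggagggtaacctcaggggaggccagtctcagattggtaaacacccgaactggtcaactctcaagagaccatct
S100A4: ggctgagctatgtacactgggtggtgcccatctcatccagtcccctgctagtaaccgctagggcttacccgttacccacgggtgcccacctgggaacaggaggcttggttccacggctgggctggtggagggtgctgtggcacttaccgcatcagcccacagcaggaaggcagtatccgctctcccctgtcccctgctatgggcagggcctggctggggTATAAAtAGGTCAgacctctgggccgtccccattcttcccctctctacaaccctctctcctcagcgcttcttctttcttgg

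The S100A2 window holds TGANTCA with its first base at position -52 from the start, and the S100A3 window holds it at -225. A match to TGANTCA reads as a match on both strands, and it occurs in 7.71% of 35116 windows. The S100A4 window has TATAAA at -31 and AGGTCA at -24 with 1 base between them. TATAAA occurs in 11.5% of all windows and AGGTCA in 13.8%. Among the other members TATAAA was matched in S100P alone, at -28. GGGCGG, the GC box, was matched in 5 members (S100A3, S100A6, S100A10, S100A11 and S100A13) and in 45% of all windows. CCAAT was matched in S100A3 alone and in 34.6% of all windows. These matches are letters in a window. Binding was not measured, and no motif was matched in all 3 genes that fell.

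Library depth was 60122936 to 68583224 counts in controls and 69923839 to 82151816 with VNLG-152R, so all treated libraries were deeper. Read pairs that HTSeq, the counting program, assigned to no annotated feature made up 2.63% to 3.17% of a control library. They made up 3.36% to 5.05% of a VNLG-152R library, highest in VNLG-152R replicate 2. Whether these pairs lie in introns or between genes was not tested. The line was checked against its markers. VIM, CD44, AXL, CAV1 and ZEB1 were present in every library, PTPRC had 1 to 2 counts and CD3E 0 to 1, and ESR1 had 0 to 1 count except for 8 in VNLG-152R replicate 3. CAV1 (log2 fold change -0.60, adjusted p = 0.0048) and VIM (-0.39, adjusted p = 0.0472 by edgeR, with the call lost in 8 of 15 alternatives) were lower with VNLG-152R. KDR, an endothelial receptor kinase, went from 12.7 to 34.4 CPM (adjusted p = 1.05e-05), while PECAM1 did not pass. The part of these shifts in the S100 results was not tested. In RNA from whole cultures, fewer cells of a type and less RNA per cell cannot be told apart.

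The family differed widely in abundance. Per kilobase of transcript, S100A6 was highest in controls at 1417 ± 19.9 CPM per kb (SD, n = 3), followed by S100A4 at 886 ± 37.4 (SD, n = 3). S100A10, S100A11 and S100A16 came next at 436 ± 48.7, 412 ± 5.82 and 409 ± 21.5 CPM per kb (SD, n = 3), and their control libraries overlapped, so their order is not resolved. S100A2 stood at 35.5 ± 1.32 and S100A3 at 16.8 ± 2.96 CPM per kb (SD, n = 3), each apart from its neighbors. S100A13 at 6.32 ± 0.628 and S100P at 6.23 ± 0.231 CPM per kb (SD, n = 3) overlapped. S100A14, known as a member of epithelial cells, was lowest at 0.205 ± 0.0869 CPM per kb (SD, n = 3).

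With VNLG-152R the top of this order stayed S100A6 (1157 ± 66.9 CPM per kb) and S100A4 (621 ± 27.7, both SD, n = 3). S100A16 at 376 ± 8.45 CPM per kb was above S100A11 at 325 ± 35.3 in every library, while its libraries overlapped those of S100A10 at 354 ± 25.5 (SD, n = 3). These levels rest on annotated median transcript lengths, since the isoform in use was not measured. Together the 10 members took 0.250%, 0.256% and 0.263% of all counts in control replicates 1 to 3. The share was 0.200%, 0.215% and 0.206% in VNLG-152R replicates 1 to 3, below every control library.

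**Figure D1:**
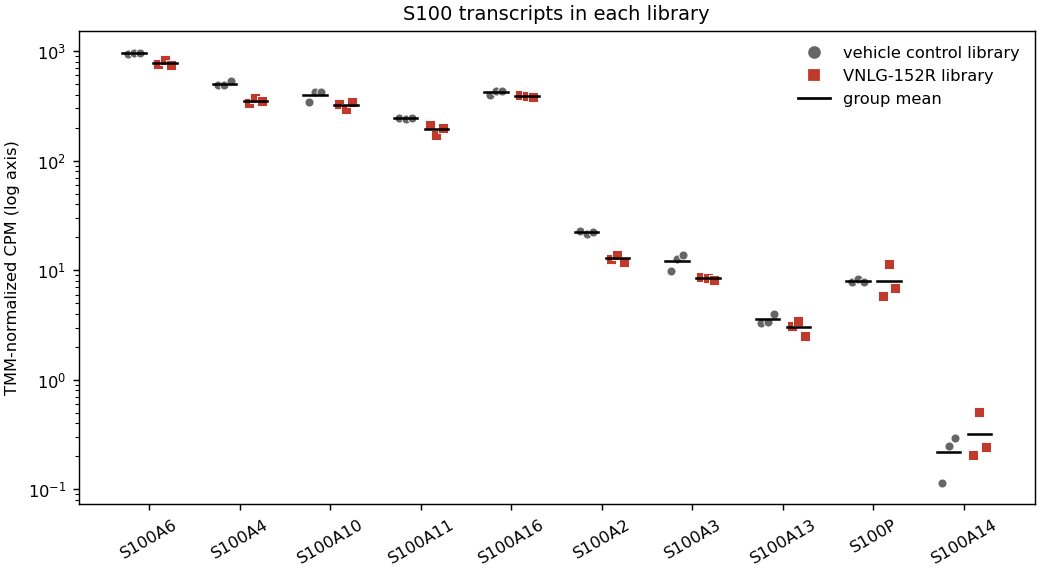
TMM-normalized CPM of the 10 S100 transcripts (log axis) in each library, with gray circles for the 3 vehicle controls, red squares for the 3 VNLG-152R samples and black bars for group means. S100A2 lies near 22.2 CPM in controls and 12.8 with VNLG-152R with no overlap, while the S100P squares spread from 5.77 to 11.3 CPM around the controls.

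The question of the comparison is which transcripts change when MDA-MB-231 cells meet VNLG-152R. Counts were compared by the quasi-likelihood test of edgeR over all 17084 genes, with Benjamini-Hochberg adjustment over these genes and a call at an adjusted p under 0.05. By this test 3 of 10 members were lower and 0 of 10 higher. Over all tested genes 1.43% were lower (245 genes) and 3.76% higher (642 genes). At an unadjusted p under 0.05 there were 6 members, all lower, and 9.76% of all tested genes were lower by that measure. In 6 of 10 members every VNLG-152R library lay below every control library, and in 0 of 10 above. The same held for 13.4% of all tested genes in the lower direction and 15.1% in the higher. The median log2 fold change of the 10 members was -0.30, with 8 below 0, beside a median of -0.00 over all tested genes, of which 50.4% were below 0. Relative to the mean of the controls, the median member stood at -0.07, 0.02 and 0.06 on the log2 scale in control replicates 1 to 3, against at -0.30, -0.31 and -0.33 in VNLG-152R replicates 1 to 3.

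S100A2, an epithelial and largely nuclear member that binds p53, was the member that changed most. Its levels were 22.9, 21.3 and 22.5 CPM in control replicates 1 to 3, against 12.8, 13.7 and 12.02 CPM in VNLG-152R replicates 1 to 3. The highest treated library lay far below the lowest control, and both groups were tight. The mean fell from 22.2 ± 0.826 to 12.8 ± 0.842 CPM (SD, n = 3 each). The log2 fold change was -0.79 with an SE of 0.09 and an adjusted p of 0.000273 by edgeR, the rank 63 p-value of all 17084 genes. Its log2 fold change lay between -0.84 and -0.73 in every alternative analysis.

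S100A4, the member tied to metastasis, binds the heavy chain of non-muscle myosin IIA. Its levels were 492, 493 and 529 CPM in control replicates 1 to 3, against 339.7, 371 and 350.1 CPM in VNLG-152R replicates 1 to 3. No treated library reached a control library. The mean fell from 505 ± 21.3 to 354 ± 15.8 CPM (SD, n = 3 each). On the log2 scale the change was -0.51 with an SE of 0.08, and edgeR gave an adjusted p of 0.00422, rank 156 by p. The largest adjusted p in any alternative was 0.0418, without control replicate 3.

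S100A3, a cysteine-rich member known from hair cuticle, lies within the GENCODE span of S100A4 on the same strand, with no shared exon. The RefSeq start window of S100A4 shown above (153545757 to 153546056) lies outside S100A3 (153547329 to 153549372), downstream of it. It had 9.75, 12.6 and 13.9 CPM in control replicates 1 to 3, against 8.63, 8.55 and 8.23 CPM in VNLG-152R replicates 1 to 3. The groups did not overlap, but control replicate 1 sat close to the treated libraries. The mean fell from 12.1 ± 2.13 to 8.47 ± 0.214 CPM (SD, n = 3 each). The log2 change was -0.51 with an SE of 0.13 and an edgeR adjusted p of 0.0371. The call was lost when any of 4 libraries was left out, namely control replicate 2 (adjusted p = 0.0902) and replicate 3 (0.179) and VNLG-152R replicate 2 (0.0715) and replicate 3 (0.118). It was also lost with a correction for transcript length (0.0757) and with replicate number as a block (0.0835). S100A3 counts were 1.98%, 2.54% and 2.63% of S100A4 counts in control replicates 1 to 3, against 2.54%, 2.31% and 2.35% in VNLG-152R replicates 1 to 3. This ratio overlapped between the groups. Whether S100A3 counts include unspliced S100A4 reads was not tested.

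S100A6, calcyclin, was the most abundant member and had 939.7, 954 and 967 CPM in control replicates 1 to 3 against 763, 829 and 744 CPM in VNLG-152R replicates 1 to 3. S100A10, known as p11, had 346, 421 and 424 CPM in controls and 326, 297 and 343 CPM with VNLG-152R. S100A11 had 248, 241 and 245 CPM in controls and 212, 171 and 197 CPM with VNLG-152R. All 3 had groups that did not overlap, although for S100A10 the gap between control replicate 1 and VNLG-152R replicate 3 was narrow. Among the 306 other genes of like length with at least 100 CPM in controls, 36.6% were lower without overlap. Their log2 fold changes were close to each other, at -0.29 (SE 0.08, adjusted p = 0.0672) for S100A6, -0.30 (SE 0.10, adjusted p = 0.102) for S100A10 and -0.34 (SE 0.09, adjusted p = 0.0522) for S100A11. None of the 3 passed the test of edgeR. S100A11 passed in 7 of 15 alternatives, among them leaving out VNLG-152R replicate 1 (adjusted p = 0.0209), and S100A6 and S100A10 in 1 of 15, DESeq2.

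S100A16, a widely expressed member, had 398, 436 and 437 CPM in control replicates 1 to 3, against 399, 386 and 383 CPM in VNLG-152R replicates 1 to 3. Control replicate 1 fell among the treated libraries, and the log2 fold change was -0.12 with an SE of 0.08 (adjusted p = 0.403). A test of its difference from S100A10 and S100A11 was not made.

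S100A13, which takes part in the release of FGF1 from cells, had 3.32, 3.39 and 3.96 CPM in controls and 3.09, 3.43 and 2.53 CPM with VNLG-152R. The groups overlapped, with a log2 fold change of -0.24 and an SE of 0.15 (adjusted p = 0.372). Its exons share 24.2% of their bases on the same strand with ENSG00000271853, which had 0 counts in every library (pairs in both may be counted as ambiguous), and 10.6% lie antisense to S100A1. S100P, first known from placenta, had 7.74, 8.30 and 7.87 CPM in controls and 5.77, 11.3 and 6.88 CPM with VNLG-152R. VNLG-152R replicate 2 was above all controls while the other two treated libraries were below them, which left a log2 fold change of 0.01 with an SE of 0.20 (adjusted p = 0.992). Without VNLG-152R replicate 2 it was -0.33. S100A14 reached only 7, 15 and 20 counts in the control libraries and 14, 39 and 20 in the treated libraries. At these counts its log2 fold change of 0.53 had an SE of 0.43 (adjusted p = 0.492), and a change was not detectable at this depth. S100A14 and S100P, the 2 members whose fitted values were above 0, had the widest SE.

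**Figure D2:**
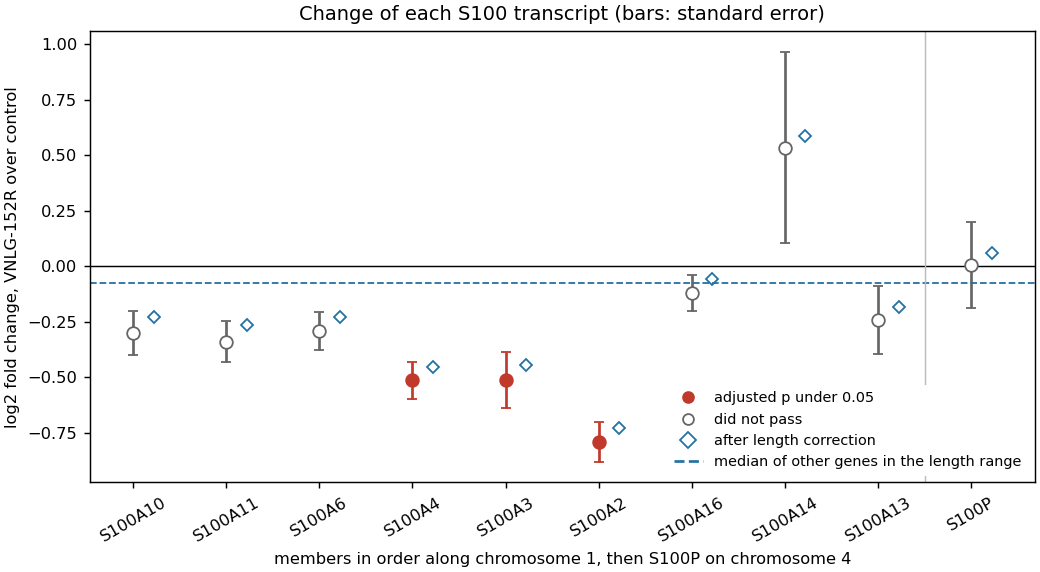
Log2 fold change of each member, VNLG-152R over control (vertical axis), in order along chromosome 1 and then S100P; circles are edgeR values with SE bars, filled red where the adjusted p is under 0.05, diamonds are values after the length correction, and the dashed line is the median of other genes of like length. S100A4, S100A3 and S100A2 sit together at -0.51, -0.51 and -0.79, while S100A16 and S100A14 beside them did not pass.

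Along chromosome 1 (GRCh38, GENCODE release 29), 9 of the 10 members lie on the minus strand. S100A10 (151982915 to 151994390) and S100A11 (152032506 to 152047907) are apart from the rest. S100A6 (153534599 to 153536244), S100A4 (153543613 to 153550136), S100A3 (153547329 to 153549372), S100A2 (153561108 to 153567890), S100A16 (153606886 to 153613145), S100A14 (153614255 to 153616986) and S100A13 (153618787 to 153631360) follow in this order. S100P lies alone on the plus strand of chromosome 4 (6693069 to 6697170). The 3 called members are thus consecutive among the members. S100A5, between S100A6 and S100A4, had 129, 86 and 114 counts in the control libraries, 94, 107 and 106 in the treated ones, and did not pass (log2 fold change -0.36, SE 0.19, adjusted p = 0.279). Once scaled to depth its 3 treated libraries lay below the controls. Of 80 other genes between S100A10 and S100A13 only 5 reached testing (S100A5, FLG, FLG-AS1, TCHH and ENSG00000285867), and by edgeR 0 were called, with 0 at an unadjusted p under 0.05 and 0 called by DESeq2 among the 4 to which it gave an adjusted p. Most of the interval was thus not expressed at a level that could be tested.

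The members are short transcripts, and in these libraries the change varied with length over all genes. The median transcript of the members runs from 563 bases for S100A13 to 1279 for S100P. The median log2 fold change of all tested genes was -0.07 at 500 to 1000 bases, -0.01 at 2000 to 3000, 0.06 at 4000 to 6000 and 0.15 above 6000 bases. Spearman's rho between log2 fold change and length was 0.21 across 16731 genes, which share the same 6 libraries and are not independent. The 3144 other genes within the length range of the members had a median of -0.08, and 61.0% were below 0. Among them 1.97% were called lower and 1.88% higher, and in 17.8% the treated libraries lay below the controls without overlap.

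Abundance moved with this as well. The 306 other genes in the length range with at least 100 CPM in controls had a median log2 fold change of -0.16, and 82.4% were below 0. Of these, 5.56% were called lower, 32.7% were lower at an unadjusted p under 0.05 and 36.6% had lower treated libraries with no overlap. S100A4 stood at the edge of that set, with 1 of the 306 at or below its log2 fold change. S100A11 had 19 (6.21%), S100A10 had 35 (11.4%) and S100A6 had 39 (12.7%) at or below theirs, while S100A16 had 174 (56.9%). The values of S100A6, S100A10 and S100A11 were thus on the low side of genes as short and abundant, and that of S100A16 near their middle. S100A2 and S100A3, with under 100 CPM, are not part of this set.

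**Figure D3:**
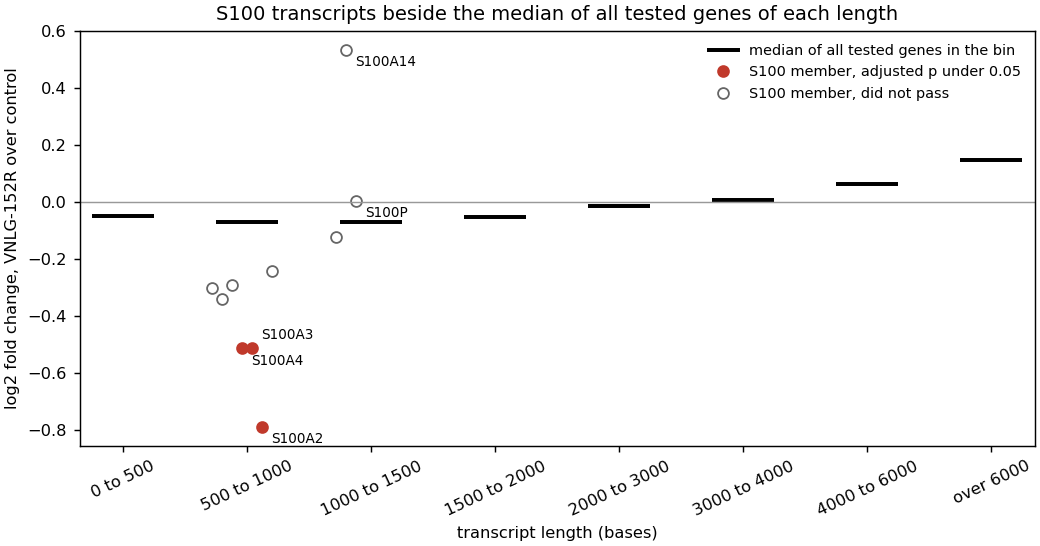
Log2 fold change, VNLG-152R over control (vertical axis), by bin of transcript length in bases (horizontal axis, with position inside a bin only to separate points); black bars are the median of all tested genes in the bin and circles are S100 members, filled red where called. The bars climb from -0.07 at 500 to 1000 bases to 0.15 above 6000, and S100A2, S100A3 and S100A4 lie far below the bar of their bin.

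A fit with the length trend of each library removed gave a median of -0.23 for the 10 members. S100A2 then stood at -0.73 (adjusted p = 0.000337) and S100A4 at -0.45 (adjusted p = 0.00472), and both kept their call. S100A3 had -0.44 and lost it, so that 2 of 10 members were lower beside 1.36% of all genes. S100A6, S100A10 and S100A11 had -0.23, -0.23 and -0.27. By DESeq2, which gave an adjusted p to 14987 genes and called 3.49% of them lower, 6 of 10 members were lower, adding S100A6 (adjusted p = 0.00678), S100A10 (0.0372) and S100A11 (0.00882). The number of called members thus ran from 2 to 6 with the analysis.

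The rest of the family was close to silent. Of 10 other S100 genes, S100A5 and S100Z reached testing, and by edgeR 0 were called, with 0 at an unadjusted p under 0.05. DESeq2 did not call S100A5 and gave S100Z no adjusted p. S100Z had 15, 10 and 17 counts in the control libraries, close to the 12, 16 and 14 of the treated ones. S100A1 had 1 to 6 counts in a library, S100A7 and S100A9 had 0 to 1, S100B had 1 count in 1 control library, and S100A7A, S100A8, S100A12 and S100G had 0 in all. The calprotectin genes S100A8 and S100A9 were therefore at or near 0 in both groups. Among the genes for S100-fused proteins, which join an S100 domain to a long repeat, 2 of 7 were tested (FLG and TCHH). FLG had 22 to 40 counts in the control libraries against 33 to 39 in the treated ones, and 0 of the 2 were called by edgeR, with 0 at an unadjusted p under 0.05. DESeq2 did not call FLG and gave TCHH no adjusted p. Pseudogenes of S100A11 took at most 4 counts in a library, small beside the 13039 to 16698 counts of S100A11.

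S100A10 and S100A11 work with annexins, a family of membrane-binding proteins. ANXA2, which holds S100A10 in a heterotetramer, had 1731, 1809.9 and 1793 CPM in control replicates 1 to 3, against 1399, 1401 and 1488 CPM in VNLG-152R replicates 1 to 3. The groups did not overlap, and its log2 fold change of -0.31 (SE 0.08, adjusted p = 0.0505) stood beside -0.30 for S100A10. ANXA1, the partner of S100A11, had 750.2, 731 and 715 CPM in controls and 536, 602 and 633 CPM with VNLG-152R, again without overlap, with -0.31 (SE 0.09, adjusted p = 0.0668) beside -0.34 for S100A11. Neither passed, and over the 12 of 13 annexin genes tested the median was -0.15, with 9 below 0. By edgeR 0 annexins were called, with 4 at an unadjusted p under 0.05 and 2 lower by DESeq2 (ANXA1 and ANXA2). Of the 4, ANXA1, ANXA2 and ANXA8 were lower and ANXA10 was higher. ANXA8 had a log2 fold change of -0.68 (SE 0.21, adjusted p = 0.0872 by edgeR) and ANXA10 had 0.63 (SE 0.18, adjusted p = 0.0603). Their control means were low, at 1.79 and 1.07 CPM. Of all tested genes, 9.76% were lower at an unadjusted p under 0.05.

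Among the genes of 22 proteins that S100 members bind inside the cell, 2 rose and 0 fell by edgeR. Over all tested genes 3.76% were higher and 1.43% lower. Of the 22, 6 had an unadjusted p under 0.05, in both directions. The median log2 fold change of the 22 was -0.06. AHNAK, a giant scaffold protein bound by S100A10 with ANXA2, had 1654, 2286 and 1824 CPM in controls and 3038, 2934 and 2340.1 CPM with VNLG-152R. It rose with a log2 fold change of 0.53 (SE 0.13, adjusted p = 0.0405), opposite in sign to S100A10. Over all tested genes, 1.81% were called higher at 500 to 1000 bases and 12.2% above 6000 bases. The median annotated length of AHNAK, 1024 bases, describes it poorly, so its place in this length trend was not tested. PPFIBP1, the liprin bound by S100A4, rose from 102 ± 7.63 to 131 ± 3.84 CPM (SD, n = 3; log2 fold change 0.37, adjusted p = 0.0272). Both calls were lost on leaving out control replicate 1, control replicate 3 or the second VNLG-152R replicate, and with replicate number as a block (adjusted p = 0.0648 for AHNAK and 0.104 for PPFIBP1). That of AHNAK was also lost without VNLG-152R replicate 1 and that of PPFIBP1 without VNLG-152R replicate 3. MYH9, the myosin heavy chain bound by S100A4, overlapped between groups (log2 fold change 0.24, adjusted p = 0.26). CACYBP, the calcyclin-binding protein of S100A6, had 203 to 241 CPM in controls and 159 to 196 CPM with VNLG-152R, which is -0.25 on the log2 scale (adjusted p = 0.168). FGF1, released with S100A13, had -0.47 (SE 0.13, adjusted p = 0.0534).

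At the cell surface, 2 of the 9 tested genes of 12 receptors and plasminogen partners rose and 0 fell by edgeR. The shares over all tested genes were 3.76% higher and 1.43% lower. Of the 9, 3 had an unadjusted p under 0.05, in both directions. PLAT, tissue plasminogen activator, whose action at the surface is helped by S100A10, had 389, 536 and 439 CPM in control replicates 1 to 3, against 1474, 1191 and 1072 CPM in VNLG-152R replicates 1 to 3. The lowest treated library was far above the highest control. PLAT rose with a log2 fold change of 1.45 (SE 0.14, adjusted p = 6.83e-05), and the call held in 15 of 15 alternatives. Its substrate gene PLG had 0 counts in all 6 libraries. ALCAM, an adhesion molecule, rose from 278 ± 19.95 to 362 ± 12.96 CPM (SD, n = 3; log2 fold change 0.38, adjusted p = 0.0266), a call lost on leaving out any of control replicates 2 and 3 or VNLG-152R replicates 2 and 3, and with replicate number as a block (adjusted p = 0.103). AGER, the receptor RAGE through which several S100 proteins act, had 0 to 1 count in a library, and CD36 had 1 to 8. BSG, a receptor of S100A9, did not pass (log2 fold change 0.05, adjusted p = 0.817).

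**Figure D4:**
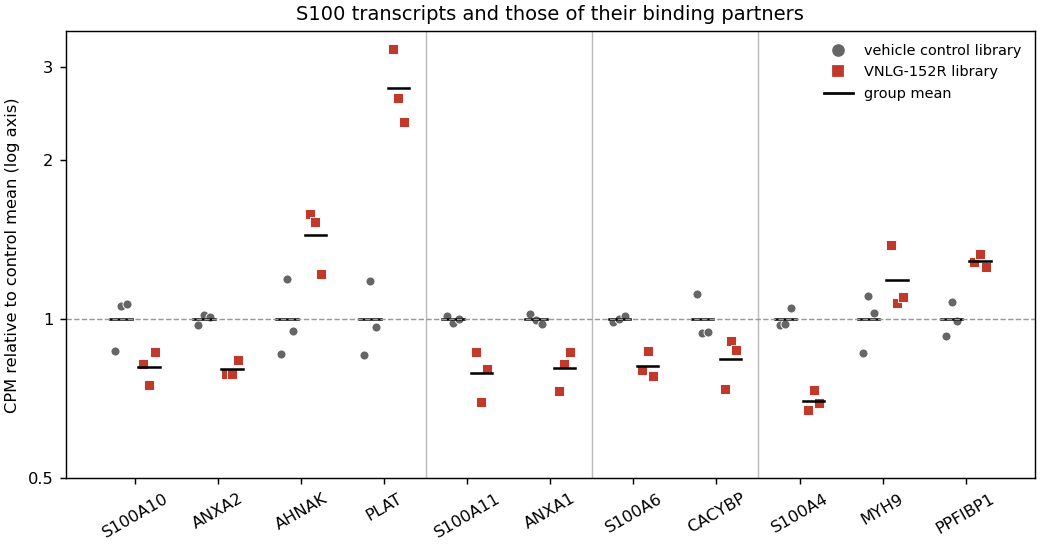
CPM of S100A10, S100A11, S100A6 and S100A4, each followed by its binding partners, in every library relative to the control mean of that gene (log axis), with gray circles for controls, red squares for VNLG-152R and black bars for group means. S100A10 and ANXA2 both lie below 1 with VNLG-152R without passing the test, while PLAT lies far above 1 and rose by 1.45 on the log2 scale.

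EF-hands are shared by many proteins outside the family. Of 38 such genes 37 were tested. By edgeR 2 rose and 0 fell, beside 3.76% of all tested genes higher and 1.43% lower. Of the 37, 8 had an unadjusted p under 0.05, in both directions. The median log2 fold change of the 37 was -0.03, beside -0.30 for the S100 members. LCP1, the actin-bundling plastin, rose from 14.3 ± 1.26 to 23.3 ± 0.970 CPM (SD, n = 3; log2 fold change 0.71, adjusted p = 0.000959). PDCD6, a penta-EF-hand protein, rose from 7.51 ± 0.647 to 12.1 ± 3.67 CPM (SD, n = 3; log2 fold change 0.68, adjusted p = 0.0444), and the call was lost without VNLG-152R replicate 2 or without any 1 of the 3 control libraries, with library size only (adjusted p = 0.0609) and with limma-voom (0.0682). CAPN2, the large subunit of a calpain and the most abundant of these genes, stood at -0.08 on the log2 scale (adjusted p = 0.599).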

How the data were processed

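The authors made strand-specific polyA libraries of MDA-MB-231 RNA, read 100 bases from each end, and deposited raw counts of reads per Ensembl gene, 1 table a sample. The submitters' processing notes name HISAT, HTSeq, DESeq and GRCh38. For versions, annotation release and strand setting, the sources used here give nothing. HTSeq's special classes were left out of the totals.

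Groups were compared in R 4.3.3 with edgeR 4.0.16 (TMM, filterByExpr, quasi-likelihood test, Benjamini-Hochberg over 17084 genes, threshold 0.05, residual degrees of freedom 4). The SE is the absolute log2 fold change over the square root of F. An exact permutation test of 3 against 3 cannot give a p under 0.10, so none was used. CPM are TMM-normalized. Transcript length is the median annotated transcript in GENCODE release 29. AHNAK, whose listed isoforms are mostly short (median 1024 bases), is poorly described by it.

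The members and lists were chosen with earlier results of these data known. Beside the members, genes named were the called genes of each list by smallest p, its most abundant gene and known partners. FGF1, AGER, CD36, PLG and the line markers outside this rule were named for their role. ANXA8 and ANXA10 were named because their unadjusted p was under 0.05. Alternatives were RLE factors, library size only, no filter, DESeq2 1.42.0, a filter at a mean of 1 CPM, limma-voom (limma 3.58.1), a replicate block, a lowess length correction (span 0.3), thinning (seed 1) and leaving out each library. The test was tested on simulated counts. Of the line markers checked, 1 is not reported here.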

Additional observations from a re-analysis of the deposited data

How the results depend on the processing

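Over the 15 alternatives, S100A2 and S100A4 were called lower in each, S100A3 in 9, S100A11 in 7, and S100A6 and S100A10 in 1. The number of members called lower was 3 in the main analysis and with limma-voom. It was 4 with RLE factors, library size only, no filter, a filter at a mean of 1 CPM and thinning. With the length correction or the replicate block it was 2, and with DESeq2 it was 6. Leaving out a library gave 2 to 4. No member was called higher under any alternative, though S100A14 was not tested at a mean of at least 1 CPM and had no adjusted p with DESeq2. The median log2 fold change of the members was -0.23 with the length correction and -0.34 to -0.27 when a library was left out. Genes called higher over the whole table numbered 642, but 1056 without a filter and 310 with the replicate block. Genes called lower numbered 245, but 483 without a filter, 523 with DESeq2 and 87 with the replicate block. Leaving out a library gave 220 to 601 higher, fewest without vehicle control replicate 3, and 44 to 347 lower, fewest without the same library. Replicate numbers did not pair the samples, as same-numbered deviations correlated at -0.19, -0.17 and -0.11, and with the block 2 members were lower.

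Some genes near 0 turned sign. The log2 fold change of S100P was -0.0036 with DESeq2, -0.051 with limma-voom, -0.052 with the replicate block and -0.026 after thinning, and it ran from -0.33 (VNLG-152R replicate 2 left out) to 0.19 (VNLG-152R replicate 1 left out), with -0.016 when control replicate 1 was left out and -0.0045 for control replicate 3. That of FLG was 0.065 after thinning and ran from -0.22 to 0.12 when a library was left out, with 0.0073 for VNLG-152R replicate 2. That of BSG ran from -0.055 without VNLG-152R replicate 1 to 0.11. The cause was not tested. Depth limits S100A14, S100Z, FLG and TCHH, which had 6 to 40 counts in a library.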
